A study of Homo sapiens with 12 samples.

Results

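The 8 genes that encode the subunits of condensin I and condensin II, together with TOP2A and MKI67, were followed in CAMA-1, an established oestrogen receptor-positive luminal breast cancer cell line of wild-type genotype. The members were the rows of the deposited count table that carried the symbols SMC2, SMC4, NCAPD2, NCAPG, NCAPH, NCAPD3, NCAPG2, NCAPH2, TOP2A and MKI67, 10 of 60612 named genes. Cells were kept for 5 days, as the study describes, in DMSO (the solvent control), in 100 nM abemaciclib, which inhibits CDK4 and CDK6, in 5 nM fulvestrant, which degrades the oestrogen receptor, or in abemaciclib plus fulvestrant. The labels do not restate the doses within the combination. Each of the 4 groups had 3 biological replicates, profiled by 3′ RNA sequencing, which counts reads near the polyadenylated end of each transcript, and all 12 libraries came from this single line. The comparison asked how the transcripts of the chromosome compaction machinery responded to CDK4/6 inhibition, to loss of oestrogen receptor signalling and to both together.

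Condensins are ring-shaped ATPases that extrude loops of DNA and compact chromosomes for mitosis. SMC2 and SMC4 form the ATPase core of both complexes, while a kleisin (NCAPH or NCAPH2) and a pair of HEAT-repeat subunits (NCAPD2 and NCAPG, or NCAPD3 and NCAPG2) make a complex condensin I or condensin II. Condensin II resides in the nucleus through interphase, and condensin I reaches the chromosomes after nuclear envelope breakdown. TOP2A, topoisomerase II alpha, untangles sister DNA molecules by passing a duplex through a double-strand break. MKI67 encodes Ki-67, a protein that coats mitotic chromosomes and is scored in breast tumours as a marker of proliferation. Many genes of this kind peak late in the cell cycle and carry CCAAT boxes and a CHR element (TTTGAA) near their start.

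The 250 bases before the RefSeq start of 4 genes are shown. TOP2A, MKI67 and NCAPG had the lowest levels relative to DMSO under the combination. NCAPD2, which fell less, carries both TTTGAA and CCAAT, as TOP2A and MKI67 do, while NCAPG carries TTTGAA without CCAAT. Sequences are those of RefSeq on GRCh38.p14, written 5′ to 3′ in the direction of the gene. The gene spans given further below are those of GENCODE. For NCAPD2 that span starts at 6493356, ahead of the RefSeq start, so its window lies inside the span. Capitals mark TTTGAA and CCAAT on either strand (TTCAAA and ATTGG when read on the opposite strand), and in MKI67 the last TTTGAA overlaps the last ATTGG.
TOP2A (chr17:40417897-40418146, - strand): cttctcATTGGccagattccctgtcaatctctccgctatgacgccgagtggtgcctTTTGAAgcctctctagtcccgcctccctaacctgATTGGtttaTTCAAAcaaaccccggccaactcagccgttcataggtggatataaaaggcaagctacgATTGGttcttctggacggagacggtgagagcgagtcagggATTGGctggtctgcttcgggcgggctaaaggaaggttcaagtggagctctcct
MKI67 (chr10:128126424-128126673, - strand): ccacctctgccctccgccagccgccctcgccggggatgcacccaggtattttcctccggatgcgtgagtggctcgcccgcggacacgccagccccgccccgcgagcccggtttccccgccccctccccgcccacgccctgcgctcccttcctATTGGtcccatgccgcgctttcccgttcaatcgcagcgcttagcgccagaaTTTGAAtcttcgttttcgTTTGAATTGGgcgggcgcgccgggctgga
NCAPG (chr4:17810729-17810978, + strand): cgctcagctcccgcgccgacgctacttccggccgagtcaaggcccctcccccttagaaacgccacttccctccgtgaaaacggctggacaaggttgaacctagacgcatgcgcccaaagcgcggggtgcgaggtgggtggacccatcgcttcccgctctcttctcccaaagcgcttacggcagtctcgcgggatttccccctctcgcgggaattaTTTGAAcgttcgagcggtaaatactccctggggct
NCAPD2 (chr12:6493852-6494101, + strand): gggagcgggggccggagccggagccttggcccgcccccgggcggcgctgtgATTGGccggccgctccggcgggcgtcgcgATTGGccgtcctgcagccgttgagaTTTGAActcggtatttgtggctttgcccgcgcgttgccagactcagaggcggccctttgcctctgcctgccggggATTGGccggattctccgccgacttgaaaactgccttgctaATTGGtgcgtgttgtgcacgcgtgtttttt

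RefSeq promoters were matched for 9 of the 10 genes, all but NCAPH2, and gave 12 windows. As for NCAPD2, the windows of SMC2, SMC4 and NCAPD3 lie partly or wholly inside the GENCODE span of the gene. TTTGAA was found in 5 of the 12 member promoters, those of SMC4, NCAPD2, NCAPG, TOP2A and MKI67, against 13.3% of all 35116 promoters and 8.68% of the 13046 promoters of tested genes. CCAAT was found in 5 of the 12, those of NCAPD2, NCAPH, NCAPD3, TOP2A and MKI67, against 32% and 33.7%. TTTGAA and CCAAT occurred together in 3 member promoters (NCAPD2, TOP2A and MKI67), against 4.69% and 3.40%. The E2F-type letters TTCCCGC were found in the promoters of NCAPG and NCAPD3, against 5.52% and 8.65%. The letters TTTAAA and TTGGCGC were in none of the 12 windows, on either strand. These matches describe letters and not bound sites. Of the 3 genes with both TTTGAA and CCAAT, NCAPD2 kept 26.0% of its DMSO mean under the combination and TOP2A and MKI67 kept 0.779% and 0.433%.

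Library totals ranged from 3299119 to 5164667 counts. All 8 markers of luminal epithelium chosen for the check were detected, with a summed level of 6362 to 8408 CPM across libraries (CPM is the read count divided by the library size and put on a common scale), ESR1 included. The markers of basal epithelium, leukocytes and endothelium summed to at most 1.14, 0.241 and 0.846 CPM. Of the fibroblast markers, COL1A2 and PDGFRB were at 0 in every library, and the list summed to 17.8 to 21.7 CPM in DMSO and 23.7 to 36.9 CPM in the treated groups, almost all of it COL1A1 and COL3A1. Fulvestrant replicate 3 stood furthest from its replicates over all genes, and counts of members that use it are given without it in the same place.

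Each gene was tested with edgeR's quasi-likelihood test on the counts of all 12 libraries, and p-values were adjusted by Benjamini-Hochberg over 11803 tested genes with a threshold of 0.05. All 10 members passed the filter on low counts. Levels below are CPM scaled by TMM library size factors, means carry the SD over n = 3 libraries, and changes are log2 fold changes with their SE. Where 3 values follow each other, they are for abemaciclib, fulvestrant and the combination, in that order. Because reads come from the 3′ end and some genes share exons with neighbours, levels are compared within a gene and not between genes. In bulk RNA, fewer cells that express a gene and less RNA per cell cannot be told apart.

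All 10 genes were lower than in DMSO under each treatment. Abemaciclib lowered 10 of 10, where 20.7% of all tested genes were lower and 20.5% higher. Fulvestrant lowered 10 of 10, where 25.7% were lower and 25.3% higher, and did so also without fulvestrant replicate 3. The combination lowered 10 of 10, where 27.5% were lower and 27.7% higher. The median log2 fold change of the 10 genes was -1.85 with abemaciclib, -2.75 with fulvestrant and -3.72 with the combination, beside medians over all tested genes of 0.00046, 0.0075 and 0.010. The 3 comparisons share the DMSO libraries. Together the 10 genes took 0.340% to 0.378% of all counts in DMSO libraries and 0.0177% to 0.0208% in combination libraries, with abemaciclib (0.0722% to 0.0836%) and fulvestrant (0.0368% to 0.0480%) between them.

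**Figure D1:**
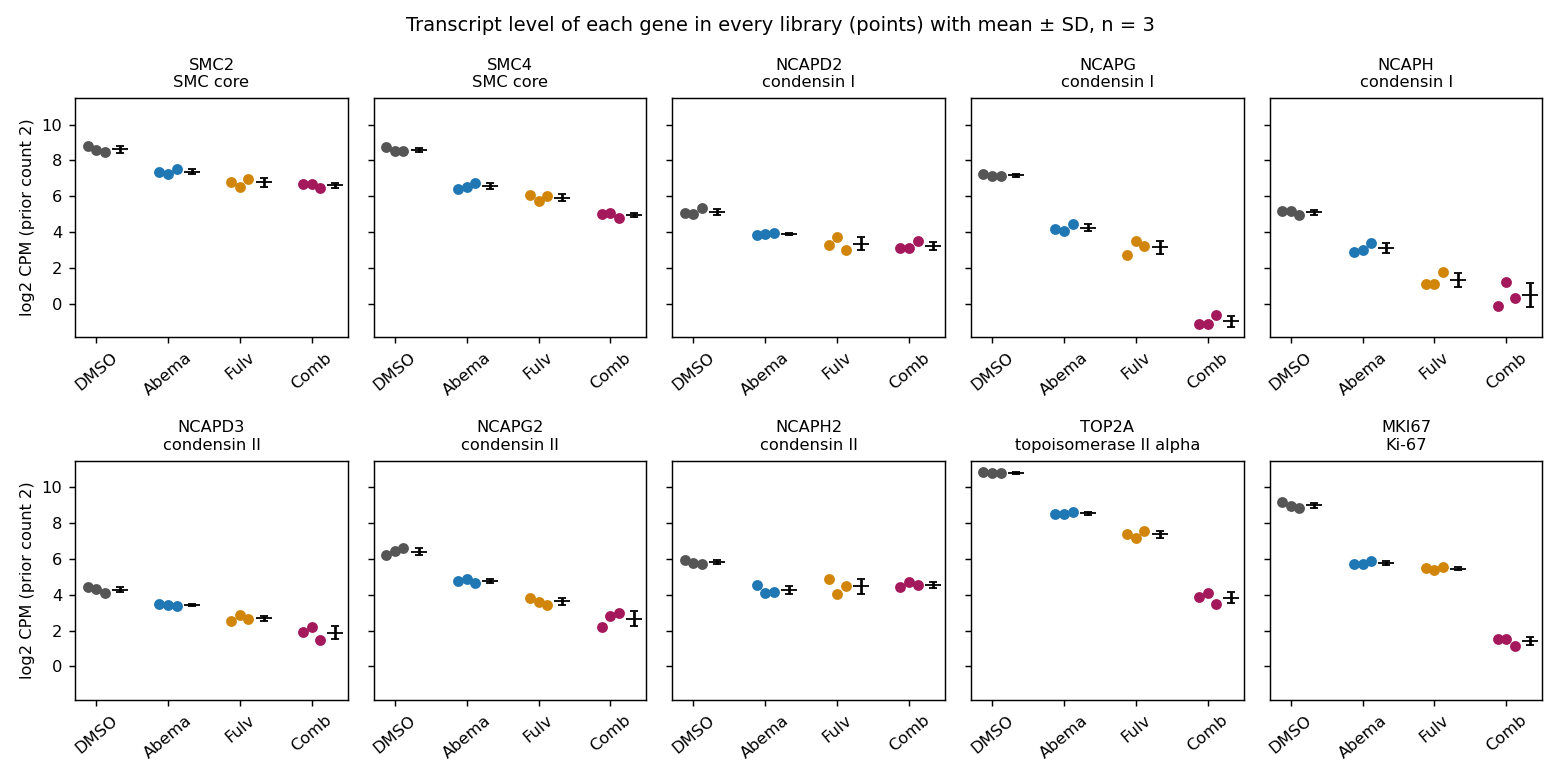
Level of each of the 10 genes in every library, as log2 CPM with a prior count of 2, in DMSO, abemaciclib (Abema), fulvestrant (Fulv) and combination (Comb) groups. Points are libraries and the black mark is the mean with its SD (n = 3). All treated libraries lie below all DMSO libraries in each panel, NCAPH2 lies between 16.1 and 28.7 CPM in all treated libraries, and NCAPG, TOP2A and MKI67 drop furthest in the combination.

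TOP2A (chr17:40388525-40417896, minus strand, GRCh38) was measured at 1884, 1750 and 1767 CPM in the DMSO libraries, 360, 359 and 400 CPM with abemaciclib, 167, 145 and 187 CPM with fulvestrant, and 14.4, 16.7 and 10.9 CPM with the combination. No pair of groups overlapped. Its log2 fold change against DMSO was -2.27 ± 0.09 with abemaciclib (adjusted p = 4.39e-16, edgeR), -3.43 ± 0.10 with fulvestrant (1.47e-19) and -7.01 ± 0.13 with the combination (1.89e-24). The combination mean was 0.779% of the DMSO mean. Abemaciclib left TOP2A 4.83-fold lower when given alone, and 11.9-fold lower when given on top of fulvestrant (log2 -3.58 ± 0.12, adjusted p = 4.98e-17).

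MKI67 (chr10:128096659-128126423, minus strand) stood at 569, 498 and 466 CPM in DMSO, 51.4, 51.4 and 59.6 CPM with abemaciclib, 44.5, 41.2 and 45.6 CPM with fulvestrant, and 2.41, 2.48 and 1.75 CPM with the combination. The abemaciclib and fulvestrant libraries lay close together without overlapping, and the combination libraries lay far below both, resting on 31 reads in all. Against DMSO the log2 fold change was -3.24 ± 0.09 with abemaciclib (adjusted p = 1.41e-19, edgeR), -3.54 ± 0.10 with fulvestrant (1.57e-20) and -7.84 ± 0.14 with the combination (6.56e-25). MKI67 had the most negative change of the 10 genes with abemaciclib, and TOP2A and MKI67 together took 0.228% or more of all counts in each DMSO library and 0.00130% to 0.00200% in the combination libraries. Fulvestrant was lower than abemaciclib by a log2 difference of -0.30 ± 0.10 (adjusted p = 0.0286), a call lost in 6 of 14 alternatives, with adjusted p up to 0.153 when abemaciclib replicate 3 was left out.

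The condensin core subunits did not change in step. SMC2 (chr9:104094260-104141419, plus strand) was at 454, 380 and 355 CPM in DMSO, 163, 150 and 183 CPM with abemaciclib, 111, 90.8 and 126 CPM with fulvestrant, and 102, 102 and 88.2 CPM with the combination. The fulvestrant and combination libraries overlapped and both lay below the abemaciclib libraries. The log2 fold changes of SMC2 were -1.26 ± 0.11, -1.85 ± 0.11 and -2.03 ± 0.11 in the 3 treatments (adjusted p = 8.9e-09, 1.55e-11 and 2.73e-12, edgeR). SMC4 (chr3:160399274-160434954, plus strand) was at 422, 365 and 372 CPM in DMSO, 85.8, 90.7 and 107 CPM with abemaciclib, 66.5, 52.2 and 63.6 CPM with fulvestrant, and 32.0, 32.5 and 27.4 CPM with the combination. For SMC4 no pair of groups overlapped. Its log2 fold changes were -2.03 ± 0.10, -2.66 ± 0.10 and -3.66 ± 0.11 (adjusted p = 2.27e-15, 9.11e-18 and 1.36e-20). The log2 ratio of SMC4 to SMC2, set to 0 at its DMSO mean, was -0.78 ± 0.10 with abemaciclib, -0.81 ± 0.13 with fulvestrant and -1.62 ± 0.017 with the combination (SD, n = 3), while the DMSO libraries spread from -0.072 to 0.097.

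Among the subunits particular to condensin I, NCAPG, a HEAT-repeat subunit, reached the floor of detection. NCAPG (chr4:17810979-17844865, plus strand) was at 150, 141 and 137 CPM in DMSO, 17.8, 16.3 and 21.5 CPM with abemaciclib, and 6.18, 10.7 and 8.89 CPM with fulvestrant. The combination libraries held 0, 0 and 1 reads, against 1909 reads in DMSO, 248 with abemaciclib and 102 with fulvestrant. The 4 groups did not overlap. Against DMSO the log2 fold change was -2.95 ± 0.13 with abemaciclib (adjusted p = 7.53e-16, edgeR) and -4.06 ± 0.15 with fulvestrant (5.41e-18). For the combination the ratio of pooled counts was 2004-fold lower than DMSO with a 95% exact counting interval of 359 to 79213, and 120.4-fold lower than fulvestrant with an interval of 21.1 to 4802. These intervals cover counting error only, because they pool the counts of the 3 libraries and leave out the spread between replicates. No molecular identifiers are described for these reads, so duplicate reads could make the intervals too narrow even for counting error. The fitted change of -10.49 (adjusted p = 3.24e-21, edgeR) depends on the prior count.

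NCAPH, the condensin I kleisin (chr2:96335766-96377091, plus strand), was at 35.9, 35.7 and 30.0 CPM in DMSO, 7.00, 7.51 and 10.1 CPM with abemaciclib, 1.73, 1.69 and 2.96 CPM with fulvestrant, and 0.481, 1.86 and 0.777 CPM with the combination. Fulvestrant and combination libraries overlapped, on 26 and 15 reads in all. The log2 fold changes were -2.05 ± 0.20, -3.95 ± 0.26 and -4.96 ± 0.28 (adjusted p = 3.4e-09, 5.8e-13 and 2.16e-14, edgeR). NCAPD2, the other HEAT-repeat subunit (chr12:6493356-6531955, plus strand), was at 32.6, 31.7 and 39.9 CPM in DMSO, 14.0, 14.3 and 14.9 CPM with abemaciclib, 9.39, 12.7 and 7.52 CPM with fulvestrant, and 8.18, 8.06 and 10.9 CPM with the combination. All combination libraries of NCAPD2 lay within the range of the fulvestrant libraries. Its log2 fold changes were -1.27 ± 0.17, -1.84 ± 0.18 and -1.93 ± 0.18 (adjusted p = 5.48e-07, 1.81e-09 and 3.55e-10). The condensin I subunits spanned 26.0% of the DMSO mean (NCAPD2) through 3.07% (NCAPH) to 1 read in all (NCAPG) under the combination.

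The condensin II subunits kept from 7.15% to 41.7% of their DMSO mean under the combination. NCAPG2 (chr7:158631169-158704804, minus strand), a HEAT-repeat subunit, was at 73.9, 85.3 and 96.5 CPM in DMSO, 26.8, 29.4 and 24.8 CPM with abemaciclib, 13.8, 11.6 and 10.5 CPM with fulvestrant, and 4.09, 6.62 and 7.57 CPM with the combination, with no overlap between groups. Its log2 fold changes were -1.66 ± 0.14, -2.84 ± 0.16 and -3.78 ± 0.17 (adjusted p = 1.26e-10, 1.41e-14 and 8.62e-17, edgeR). NCAPD3 (chr11:134150113-134225504, minus strand), the other HEAT-repeat subunit, was at 20.8, 19.2 and 16.9 CPM in DMSO, 10.8, 10.2 and 9.85 CPM with abemaciclib, 5.44, 6.77 and 5.70 CPM with fulvestrant, and 3.37, 4.14 and 2.33 CPM with the combination. Its groups did not overlap either. Its log2 fold changes were -0.87 ± 0.19, -1.66 ± 0.21 and -2.52 ± 0.23 (adjusted p = 0.000531, 1.9e-07 and 2.8e-10).

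NCAPH2, the condensin II kleisin (chr22:50508224-50524780, plus strand), was the member whose 3 treated groups lay closest together. It was at 60.5, 53.8 and 52.5 CPM in DMSO, 23.0, 16.6 and 17.4 CPM with abemaciclib, 28.7, 16.1 and 22.3 CPM with fulvestrant, and 20.9, 26.1 and 22.5 CPM with the combination. The treated groups overlapped each other and none reached the DMSO libraries. Its log2 fold changes against DMSO were -1.53 ± 0.16, -1.30 ± 0.16 and -1.25 ± 0.15 (adjusted p = 1.3e-08, 1.1e-07 and 1.11e-07, edgeR). The difference between combination and abemaciclib was 0.28 (interval of 2 SE -0.063 to 0.62, adjusted p = 0.22), and that between combination and fulvestrant was 0.045 (-0.30 to 0.39, adjusted p = 0.954).

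**Figure D2:**
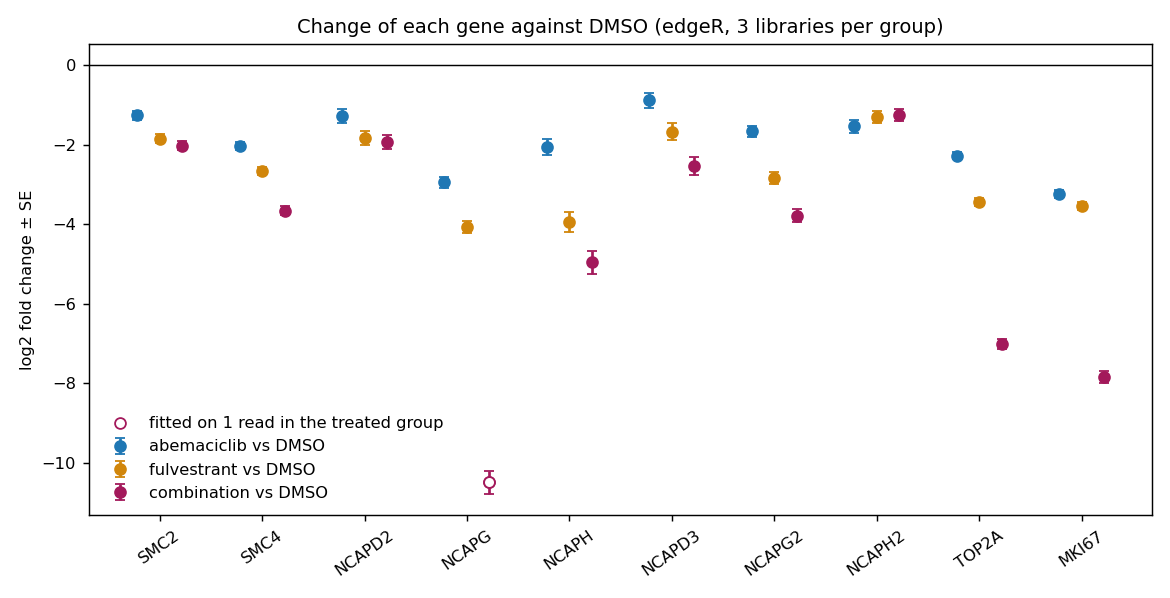
Log2 fold change of each gene against DMSO with abemaciclib, fulvestrant and the combination, with SE from edgeR (3 libraries per group). Every point lies below 0, the combination point is lowest for all genes except NCAPH2 (-1.25), and the open circle for NCAPG is a fit to 1 read.

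Ratios between the paired subunits of condensin I and condensin II lay outside the DMSO range in all combination libraries for 2 of the 3 pairs, NCAPH over NCAPH2 and NCAPG over NCAPG2. Set to 0 at the DMSO mean, the log2 ratio of NCAPH to NCAPH2 was -0.46 ± 0.45 with abemaciclib, -2.43 ± 0.53 with fulvestrant and -3.38 ± 0.51 with the combination (SD, n = 3), and the combination libraries ranged from -3.81 to -2.81 while those of DMSO ranged from -0.090 to 0.13. The ratio of NCAPG to NCAPG2 was -1.28 ± 0.32, -1.23 ± 0.55 and -4.39 ± 0.32 on the same scale, the last with a prior count of 2 in place of the missing NCAPG reads. NCAPH rested on 26 reads with fulvestrant and 15 with the combination, so the prior count also pulls its ratio towards 0 there. The ratio of NCAPD2 to NCAPD3 was -0.38 ± 0.11, -0.20 ± 0.25 and 0.51 ± 0.59, against a DMSO spread of -0.21 to 0.36. Its abemaciclib libraries ranged from -0.49 to -0.28, all below that spread. Its combination libraries ranged from 0.037 to 1.17 and overlapped it. No test was run on these ratios, and the share of other gene pairs outside their DMSO range is not given.

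Some of these genes share exon sequence with a neighbour close to their 3′ end, in the region that 3′ sequencing reads. The last 1000 exonic bases of NCAPG lie opposite exons of LCORL, those of SMC4 opposite TRIM59 and those of NCAPD3 opposite JAM3. Of the last 1000 bases of NCAPH2, 644 lie opposite SCO2. These overlaps come from a later GENCODE release for GRCh38 than the one the study counted with. It is not given in the sources used here whether counting used strand. LCORL held 560 reads in the combination libraries, where NCAPG held 1, and was lower than DMSO by log2 fold changes of -0.94 ± 0.12, -0.33 ± 0.12 and -0.47 ± 0.12 (adjusted p = 5.8e-07, 0.0206 and 0.00135, edgeR). JAM3 held 0 reads in every library. SCO2 differed from DMSO by a log2 fold change of 0.29 ± 0.13 with abemaciclib, -0.14 ± 0.14 with fulvestrant and 0.03 ± 0.13 with the combination (adjusted p = 0.0752, 0.407 and 0.869, edgeR). The changes of TRIM59 were -0.97 ± 0.24, -1.12 ± 0.25 and -0.95 ± 0.24 (adjusted p = 0.0022, 0.000576 and 0.00156). NCAPH2 also shares 855 bases with a long non-coding RNA on its own strand, for which no row was found in the deposited counts. The values of these 4 genes are uncertain to the extent of these overlaps. The part of these neighbours in the results was not tested. The pseudogenes SMC4P1, NCAPD2P1, NCAPGP1, NCAPGP2 and MKI67P1 held 0 reads.

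The combination was lower than abemaciclib alone for 9 of 10 genes, where 17.7% of tested genes were lower and 15.9% higher. The exception was NCAPH2. The largest differences after NCAPG were those of TOP2A (log2 -4.74 ± 0.12, adjusted p = 1.91e-20, edgeR) and MKI67 (-4.61 ± 0.17, 4.05e-18), and the smallest that passed was NCAPD2 (-0.66 ± 0.20, 0.00976), which reached an adjusted p of 0.0523 without combination replicate 2. The median over the 10 genes was -1.89. Fulvestrant was lower than abemaciclib for 9 of 10 genes, again all except NCAPH2, where 15.5% of tested genes were lower and 13.4% higher, and for 8 of 10 without fulvestrant replicate 3. These differences were smaller, with a median of -0.71, and reached -1.89 ± 0.32 for NCAPH (adjusted p = 3.57e-05). NCAPD2 (-0.56 ± 0.20, adjusted p = 0.034) lost its call in 7 of 14 alternatives, with adjusted p up to 0.178 without fulvestrant replicate 3.

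Adding abemaciclib to fulvestrant lowered 5 of 10 genes, where 1.63% of all tested genes were lower and 0.297% higher. The count was also 5 without fulvestrant replicate 3. The 5 were TOP2A, MKI67 (log2 -4.30 ± 0.17, adjusted p = 2.85e-16, edgeR), NCAPG (1.14e-09), SMC4 (-0.995 ± 0.12, 1.3e-06) and NCAPG2 (-0.94 ± 0.22, 0.0131). The call for NCAPG2 was lost in 3 of 14 alternatives, including without fulvestrant replicate 1 (adjusted p = 0.119) and without combination replicate 1 (0.0972). NCAPD3 was lower in each combination library than in each fulvestrant library, with a difference of -0.86 (interval of 2 SE -1.41 to -0.31) that did not pass over all genes (adjusted p = 0.131). For NCAPH the difference was -1.01 (-1.95 to -0.075, adjusted p = 0.397), on few reads. SMC2 differed by -0.18 (-0.41 to 0.057, adjusted p = 0.613) and NCAPD2 by -0.098 (-0.52 to 0.33, adjusted p = 0.909).

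The abemaciclib effect differed with and without fulvestrant for 8 of the 10 genes, and not in the same direction. An interaction term, the abemaciclib effect with fulvestrant minus that without it, was negative for 3 of 10 genes and positive for 5, where 11.6% of tested genes were negative and 9.49% positive. With fulvestrant present the abemaciclib effect was deeper for TOP2A (interaction -1.30 ± 0.15, adjusted p = 8.05e-07, edgeR), MKI67 (-1.06 ± 0.23, 0.00134) and NCAPG (0.00105, a fit to 1 read in the combination). It was shallower for NCAPH2 (1.58 ± 0.23, 1.93e-05), NCAPD2 (1.17 ± 0.27, 0.00236), SMC2 (1.08 ± 0.16, 5.17e-05), SMC4 (1.04 ± 0.15, 1.38e-05) and NCAPG2 (0.72 ± 0.26, 0.0483). The call for NCAPG2 was lost in 13 of 19 alternatives. One of them was the fit without fulvestrant replicate 3 (adjusted p = 0.0783), in which 7 of the 10 genes passed and 4 terms were positive. NCAPH (1.04 ± 0.55, adjusted p = 0.187) and NCAPD3 did not pass. For NCAPD3 the term was 0.013 ± 0.47, with an interval from -0.65 to 0.68 that is 2 times an SE of 0.33. That smaller SE combines the SEs of the abemaciclib effects with and without fulvestrant. The 3 negative terms also passed in every alternative run, the fits without fulvestrant replicate 3 included.

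**Figure D3:**
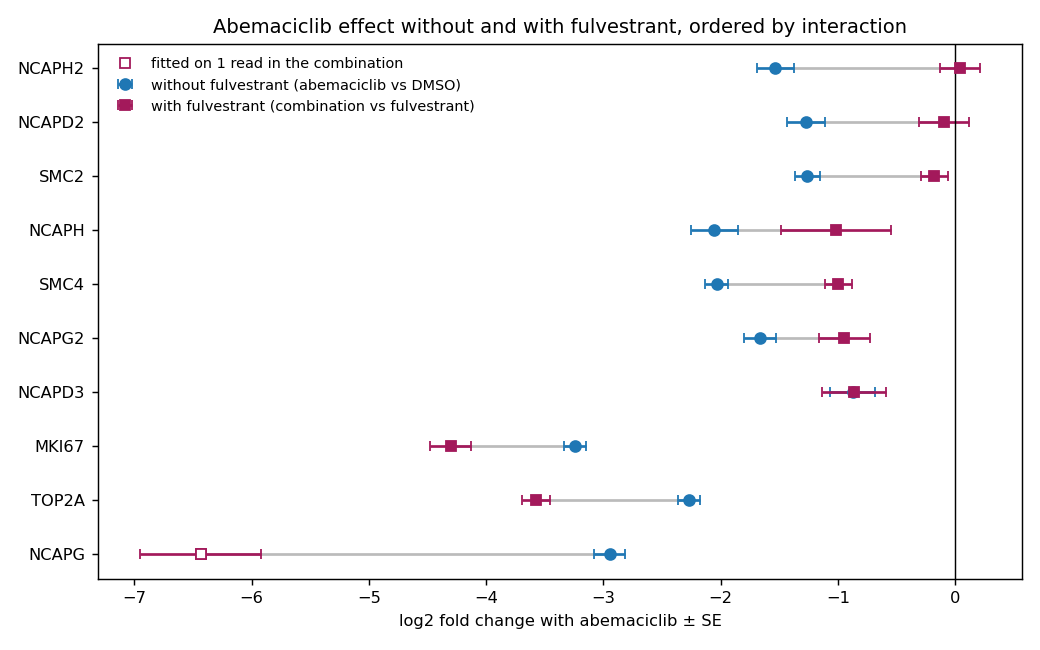
Log2 fold change with abemaciclib in the absence of fulvestrant (circles, abemaciclib against DMSO) and in its presence (squares, combination against fulvestrant), with SE, ordered by the interaction. The square lies left of the circle for NCAPG, TOP2A and MKI67 and right of it for the genes from NCAPG2 upward, the symbols of NCAPD3 coincide, and the open square for NCAPG is a fit to 1 read.

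Other genes of chromosome structure, 49 in 8 lists, were examined for the same comparisons, and 47 of them passed the filter (TOP3B and NUSAP1 did not). Against DMSO, 35 of 47 fell and 1 rose with abemaciclib, where 20.7% of all tested genes were lower and 20.5% higher. With fulvestrant 33 fell and 3 rose (25.7% and 25.3% of all tested genes), and with the combination 32 fell and 4 rose (27.5% and 27.7%). With an at least 2-fold change also required, 26, 23 and 24 fell and 0 rose. The shares of all tested genes under this stricter rule are not given here. Adding abemaciclib to fulvestrant lowered 14 of 47, where 1.63% of all tested genes were lower. The interaction was negative for 8 and positive for 17 of 47, where 11.6% of tested genes were negative and 9.49% positive. The positive count was 9 when an at least 2-fold difference was required, again with no share of all tested genes under that rule. The median log2 fold changes were -1.08, -0.998 and -1.01 against DMSO, smaller than the medians of the condensin genes, TOP2A and MKI67 given above, and the difference between the sets was not tested.

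Cohesin, which holds sister chromatids together and is built on SMC1A and SMC3, relatives of SMC2 and SMC4. All 5 cohesin ring genes fell with abemaciclib, and 4 of 5 with fulvestrant and with the combination, at medians of -1.08, -0.95 and -0.99. SMC3 had the lowest value in each, at -1.42 ± 0.14, -1.35 ± 0.14 and -1.42 ± 0.14 (adjusted p = 6.4e-07, 6.1e-07 and 2.84e-07, edgeR), and SMC1A was at -1.06 ± 0.13, -1.17 ± 0.13 and -1.26 ± 0.13. STAG2, an adaptor subunit, had the highest, at -0.30 ± 0.08 (adjusted p = 0.00382), -0.09 ± 0.08 (0.378) and -0.07 ± 0.08 (0.488). STAG2 was higher with the combination than with abemaciclib (0.23 ± 0.08, 0.0267) and with fulvestrant than with abemaciclib (0.21 ± 0.08, 0.0489, and up to 0.0717 over the 4 scalings and tests). Adding abemaciclib to fulvestrant gave differences from SMC1A at -0.09 ± 0.13 (adjusted p = 0.854) to STAG2 at 0.02 ± 0.08 (0.957).

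In the list of cohesin loading and release factors, 3 of 5 fell with abemaciclib, 2 with fulvestrant, and 1 fell and 1 rose with the combination (medians -0.25, -0.07 and 0.0026). For the combination these counts are near or below the shares of all tested genes just given. The PDS5A calls with abemaciclib and fulvestrant had adjusted p up to 0.0511 and 0.0515 over the 4 scalings and tests. WAPL, which releases cohesin from DNA, was lowest with fulvestrant (-0.42 ± 0.11, adjusted p = 0.00199, edgeR) and the combination (-0.38 ± 0.11, 0.00391), and PDS5B with abemaciclib (-0.39 ± 0.12, 0.0115). MAU2, part of the cohesin loader, was highest in all 3 and rose with the combination (0.40 ± 0.12, 0.00465). Among genes of cohesion establishment and protection, 4 of 6 fell in each treatment and HDAC8, the cohesin deacetylase, rose with the combination (0.48 ± 0.15, 0.00788). ESCO2, the acetyltransferase that acts on cohesin in S phase, was lowest with the single agents, at -2.31 ± 0.32 with abemaciclib and -4.17 ± 0.42 with fulvestrant. In the combination it held 0 reads against 209 in DMSO, at least 73.2-fold lower with 3 counts over the group as the floor, and its place among the others could not be set. Of those with reads there, SGO1 was lowest (-6.67 ± 0.28, 1.45e-15). The medians of this list were -1.56, -2.83 and -4.77, the last -4.21 with genes at the floor set to their bound. The cohesin protease ESPL1 and its inhibitor PTTG1 fell in all 3 treatments, and ESPL1 held 1 read in the combination against 242 in DMSO, a ratio of 254-fold with a counting interval of 45.2 to 10077.

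The SMC5/6 complex is a relative of condensin that works in DNA repair. With abemaciclib 3 of 6 of its genes fell, with fulvestrant 2 fell and 1 rose, and with the combination 2 fell (medians -0.32, -0.23 and -0.17), and the counts with fulvestrant and the combination are near the shares of all tested genes. One of the abemaciclib calls, NSMCE4A (-0.39 ± 0.16, adjusted p = 0.0458, edgeR), did not pass in 2 of the 4 scalings and tests (up to 0.101). SMC5 was lowest in each, at -1.18 ± 0.13, -1.21 ± 0.13 and -1.10 ± 0.13 (adjusted p = 2.36e-08, 9e-09 and 2.65e-08, edgeR). The highest were NSMCE3 with abemaciclib (0.26 ± 0.47, 0.687) and the combination (0.30 ± 0.46, 0.609), and NSMCE1 with fulvestrant (0.41 ± 0.11, 0.0029).

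TOP2B, the topoisomerase II paralogue that non-dividing cells also express, rose while TOP2A fell, under each of the 4 scalings and tests run. TOP2B rose by 0.35 ± 0.09 with abemaciclib, 0.69 ± 0.09 with fulvestrant and 0.58 ± 0.09 with the combination on the log2 scale (adjusted p = 0.00228, 1.83e-07 and 2.22e-06, edgeR), and was the highest of its list in each. Of the 4 tested topoisomerases of this list, TOP3A was lowest in each, at -0.77 ± 0.21, -0.96 ± 0.22 and -0.71 ± 0.21 (0.00431, 0.000526 and 0.00449). In all, 1 fell and 1 rose with abemaciclib, and 2 fell and 1 rose with fulvestrant and with the combination (medians -0.24, -0.52 and -0.43). Of all tested genes, 20.7%, 25.7% and 27.5% were lower and 20.5%, 25.3% and 27.7% higher. The counts with abemaciclib, and the counts that rose in the other treatments, are near these shares.

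Among condensin regulators and other chromosome partners, 7 of 9 fell in each treatment (MCPH1 with abemaciclib had an adjusted p up to 0.103 over the 4 scalings and tests), and BANF1, which binds DNA at the nuclear envelope, rose with fulvestrant (0.31 ± 0.11, adjusted p = 0.0217, edgeR) and the combination (0.37 ± 0.11, 0.00572). BANF1 was also the highest with abemaciclib (0.06 ± 0.11, 0.698). KIF4A, the chromokinesin that works with condensin, was lowest in each, at -2.03 ± 0.12 and -3.35 ± 0.14 with the single agents, and held 6 reads in the combination against 1506 in DMSO, a ratio of pooled counts of 264-fold with an interval of 121 to 719. The medians were -0.69, -0.92 and -0.93. The mitotic kinase list, whose members include the kinases that phosphorylate condensin and their partners, had 10 of 10 lower in all 3 treatments, with medians of -1.93, -3.25 and -6.18, the last -5.59 with HASPIN at its bound. Its lowest member was AURKB with abemaciclib (-3.03 ± 0.17, 6.01e-14), PLK1 with fulvestrant (-3.68 ± 0.14, 1.11e-17) and, among those with reads in the combination, BIRC5 (-7.82 ± 0.20, 5.92e-22). HASPIN held 0 reads in the combination against 89 in DMSO, at least 31.2-fold lower with 3 counts over the group as the floor, which leaves its place in this order undetermined. The highest was CCNB2 with abemaciclib (-1.18 ± 0.11, 2.81e-09) and INCENP with fulvestrant (-2.14 ± 0.19, 4.38e-10) and the combination (-1.74 ± 0.18, 4.22e-09).

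When abemaciclib was added to fulvestrant, 14 of the 47 genes were called and all 14 were lower. The mitotic kinase list had 8 of 10 lower, from BIRC5, the survivin gene (-4.31 ± 0.28, adjusted p = 1.07e-11, edgeR), to INCENP (0.40 ± 0.23, 0.53), which was not called. Of the condensin regulators and partners 2 of 9 were lower, KIF4A (1.8e-10) and CDCA2 (-1.06 ± 0.28, 0.0465, and up to 0.0968 over the 4 scalings and tests), and AKAP8 was highest (0.11 ± 0.12, 0.783). Of the cohesion genes 2 of 6 were lower, CDCA5 and SGO1. ESCO2, at 0 reads against 10, did not pass (0.0791), and HDAC8 was highest (0.13 ± 0.14, 0.797). The 4 topoisomerases ran from TOP2B (-0.11 ± 0.08, 0.689) to TOP3A (0.25 ± 0.23, 0.743), the 5 loading and release factors from WAPL (0.04 ± 0.11, 0.928) to MAU2 (0.15 ± 0.11, 0.663), and the 6 SMC5/6 genes from NSMCE1 (-0.29 ± 0.11, 0.253) to NSMCE4A (0.14 ± 0.16, 0.796).

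**Figure D4:**
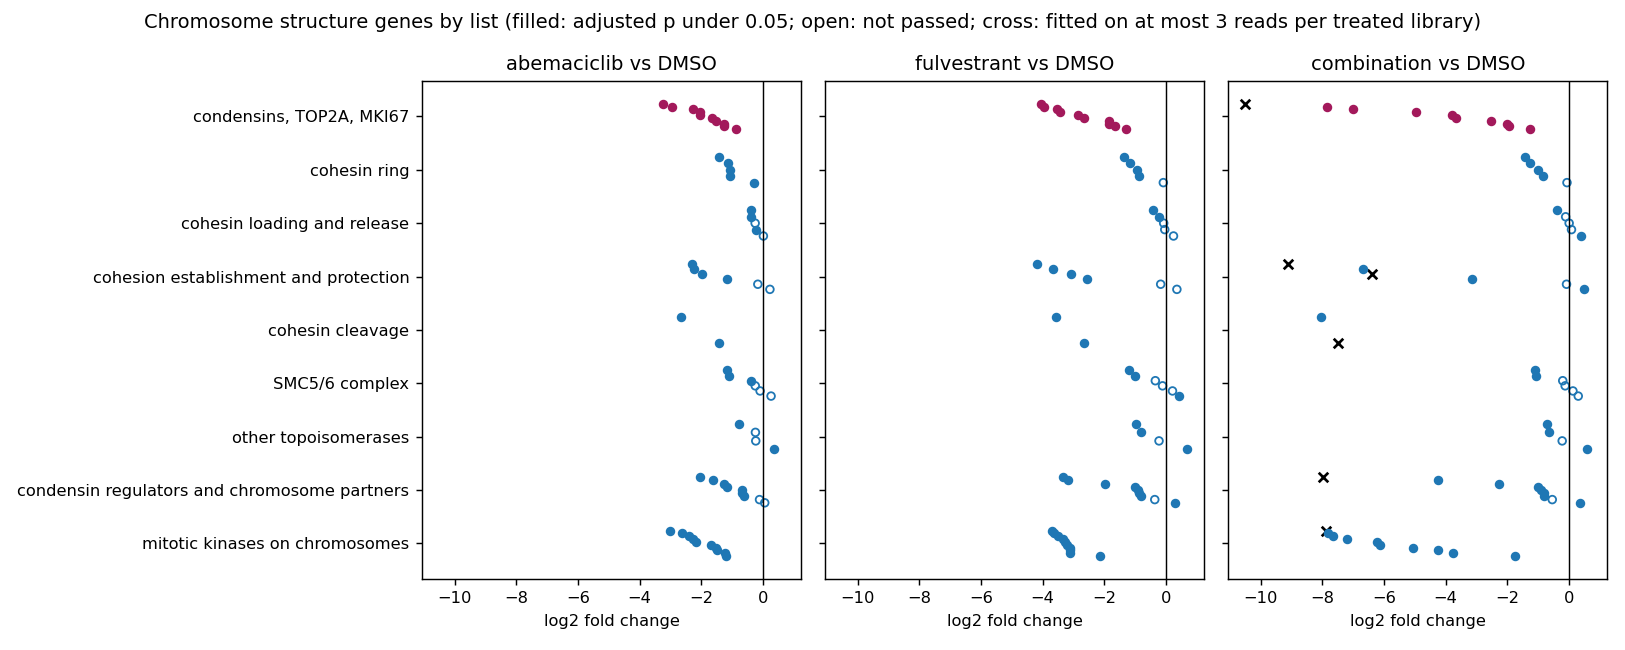
Log2 fold change against DMSO for the 10 genes (top row) and for the 47 tested genes of the 8 lists, 1 point per gene, with abemaciclib, fulvestrant and the combination. Filled points passed an adjusted p of 0.05, open points did not, and crosses are fits to at most 3 reads per combination library. The cohesin ring stays between -1.42 and -0.07 under the combination. The list of mitotic kinases and their partners reaches -7.82 (BIRC5) apart from HASPIN, a cross.

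The genes most like each member were found by the root mean square (RMS) difference of log2 CPM, each gene set to 0 at its DMSO mean, over the 9 treated libraries. This is a description over libraries of 3 groups that share a DMSO reference, with no test. TOP2A was closest to KIF4A (RMS 0.20), PLK1 (0.35) and NEK2 (0.44), all genes of mitosis. MKI67 was closest to MCM10 (0.22), CCNA2 (0.33) and FAM111B (0.40), of which MCM10 and CCNA2 act in DNA replication. NCAPG had no gene as near, with PTTG1 at 0.47, RRM2 at 0.47 and MCM10 at 0.50. In the combination NEK2, MCM10, CCNA2 and RRM2 had means of only 0.138, 0.0689, 0.145 and 0.134 CPM, and NCAPG held 1 read, so over those libraries their RMS depends largely on the prior count of 2. KIF4A, PLK1 and FAM111B had means of 0.432, 0.691 and 0.868 CPM there, low enough for the prior count to shift their RMS too. Fitted changes against DMSO in the combination were -7.96 for KIF4A, -7.65 for PLK1 and -7.01 for TOP2A.

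SMC2 was closest to KNSTRN (0.16), NOP56 (0.17) and TIPIN (0.20), and SMC4 to ATAD2 (0.20), HELLS (0.22) and RTKN2 (0.29). NCAPD2 was closest to FIGNL1 (0.21), LBR (0.24) and RFC4 (0.25). NCAPH was closest to CIP2A (0.42), CENPF (0.43) and ARHGAP11A (0.46). NCAPG2 was closest to BRCA1 (0.25), RTKN2 (0.31) and KIF23 (0.33), and NCAPD3 to SLC1A5 (0.21), IRS1 (0.24) and CEP135 (0.28). NCAPH2 was closest to MTHFD2L (0.26), the cohesin gene SMC3 (0.28) and USP1 (0.30). Among the 10 genes themselves the closest pair was SMC2 and NCAPD2 (0.34), followed by SMC4 and NCAPG2 (0.38), and the most distant was NCAPG and NCAPH2 (4.36).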

How the data were processed

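Libraries were prepared by the authors from total RNA with the QuantSeq FWD 3′ kit. Per the labels and the study's methods, reads were trimmed, aligned to hg38 with STAR and assigned to GENCODE genes with featureCounts 2.0.1, giving the deposited table of raw counts per gene symbol for 12 libraries. 3′ reads count transcript ends, so transcript length does not scale the counts. Whether counting used strand, and whether reads were deduplicated, is not given in the sources used here.

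The 44 rows with no gene name held 0 reads and were left out. Another 76 names stood on 1079 rows, 17 of which were tested, none of them a member. Genes were kept by filterByExpr (minimum count 10, minimum total 15), leaving 11803. edgeR 4.0.16 (R 4.3.3) was run with TMM factors and robust glmQLFit on all 12 libraries with 4 group means, which share a spread (common biological coefficient of variation 0.0918). Totals were 3299119 to 5164667 counts. Every pair of replicates differed by more than sampling noise. SE is the log2 fold change divided by the square root of F. For the interval of the NCAPD3 interaction alone, the SE instead combines those of its abemaciclib effects with and without fulvestrant. The study used DESeq2, run here (1.42.0) as an alternative beside other scalings, filters, thinning, fits to the compared groups, a replicate block and leaving out each library. The scripts were tested on simulated data. The numbers in the labels did not pair the libraries.

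The members and lists were chosen with earlier results of these data known. All 10 members were named. From each list of 5 or more genes the lowest and highest log2 fold change in each comparison with DMSO and in combination against fulvestrant were named, with TOP2B, SMC1A and SMC3, and the 3 nearest patterns of each member. Other genes named, those at the floor among them, were chosen after their values were seen.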

Additional observations from a re-analysis of the deposited data

Results flagged for a closer look

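The abemaciclib effect differed with and without fulvestrant, by the interaction term in edgeR (adjusted p under 0.05 over 11803 genes), for 8 of the 10 genes. Of all tested genes, 11.6% had a negative and 9.49% a positive term at this threshold. On the log2 scale the term was -3.488 for NCAPG, where the combination held 1 read, -1.304 for TOP2A and -1.064 for MKI67. It was 1.579 for NCAPH2, 1.174 for NCAPD2, 1.082 for SMC2, 1.038 for SMC4 and 0.7186 for NCAPG2. The NCAPG2 term had an adjusted p of 0.0483, which ranged from 0.0154 to 0.41 over 19 alternatives. The abemaciclib effect on TOP2A was -2.27 ± 0.09 alone and -3.58 ± 0.12 with fulvestrant, and that on NCAPH2 was -1.53 ± 0.16 and 0.04 ± 0.17.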

How the results depend on the processing

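The counts of members lower than DMSO stayed at 10 of 10 in every alternative except a requirement of an at least 2-fold change, where abemaciclib gave 9. That requirement lowered the count for combination against fulvestrant from 5 to 3 and for fulvestrant against abemaciclib from 9 to 4, since the smaller changes do not meet it. Shares of all tested genes under that requirement are not given here. Of 110 member counts under alternatives, 108 lay within 1.5 times the count in the report. Of 1029 log2 fold changes under alternatives, 985 kept direction and side of the threshold, 30 kept direction but no longer passed, and 14 changed sign. All 14 belong to differences near 0 that never passed. The NCAPD3 interaction was -0.001167 with upper-quartile factors and -0.001171 with no filter, and ran from -0.212 to 0.2123 without single libraries. NCAPD2 in combination against fulvestrant was 0.006523 when libraries were thinned to the smallest total and ran from -0.268 to 0.11 without single libraries, and NCAPH2 was -0.06958 and ran from -0.1309 to 0.2542. The 30 lost calls were those of NCAPG2 (interaction and combination against fulvestrant), NCAPD2 and MKI67 (fulvestrant against abemaciclib) and NCAPD2 (combination against abemaciclib). Over the members and lists, 256 calls were compared between TMM, DESeq2's size factors in edgeR, upper-quartile factors and DESeq2 itself, after the data were seen: 0 changed direction and 15 did not pass in all 4. Without single libraries, fulvestrant against abemaciclib gave 7 to 8 members, combination against abemaciclib 8 to 9 and combination against fulvestrant 4 to 5. Fits to only the groups compared gave 4 for the last and 7 for fulvestrant against abemaciclib, as DESeq2 did for the latter.

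With the replicate block, the counts were 10, 10, 10, 9, 5 and 9 lower members and 3 negative interactions, as without it, and the NCAPG2 interaction no longer passed (0.6976, adjusted p = 0.064). Libraries with the same number correlated at -0.215 to 0.119 over 18 pairs and 5 of 12 correlated best with their own number. These values showed no pairing by number, but they cannot exclude a weak one with so few libraries per group. Depth limits NCAPG, NCAPH and MKI67 in the combination, which rest on 1, 15 and 31 reads.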
